A study of Mus musculus with 8 samples.

Results

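Antiviral restriction factors are proteins that block single steps of a virus life cycle inside the host's own cells, and 9 of their genes were examined here among the 54532 genes listed for naive mouse corneas. They are Mx1, Mx2, Bst2, Ifitm1, Ifitm2, Ifitm3, Samhd1, Zc3hav1 and Isg20, matched by Ensembl identifier to their symbols in an annotation of the mouse genome build GRCm38. The genes were picked by name with the strain contrast of these data already known, so their strain differences are given as a description, without p-values. All 9 passed the filter on low values, a mean of at least 0, that left 25402 genes for the fits across all genes.

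Total RNA of unmanipulated (naive) corneas was sequenced from 2 inbred strains, with 4 samples of the albino strain BALB/c (Balb/c in the labels, BALB/cN in the study) and 4 of the pigmented strain C57BL/6N, taken from male mice. The study compared these strains because their corneas differ in the lymphatic vessels at the rim. The RNA had been isolated with a column kit that includes DNA digestion, and libraries were made with a mouse kit of the Ovation type. Mice of both strains used for phenotyping were 8 to 10 weeks old, and the methods do not give the age of the sequenced males separately. The sources used here also do not state whether each cornea came from a different animal, or any batch, so the errors below measure only the spread between these 8 samples.

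The values are rlog values, a regularized logarithm to base 2 that is normalized for library size and pulls genes with few reads toward their mean. The numbers of reads behind them are unknown here, and a difference of 1 rlog unit corresponds to a doubling at high counts and to more than that at low counts. In these whole tissue samples, fewer cells of a type and less RNA per cell cannot be told apart. The corneal epithelium markers were present in every cornea, with the mean over 7 marker genes at 16.53 to 16.75 in BALB/c and 16.65 to 16.78 in C57BL/6N. By contrast, the mean over 6 genes of stromal keratocytes, the collagen-producing cells of the corneal stroma, was 14.21 to 14.24 in BALB/c replicates 1, 3 and 4 and 12.21 in replicate 2. In C57BL/6N it was 14.53 and 14.47 in replicates 1 and 2 but 11.18 and 11.36 in replicates 3 and 4. These 3 corneas with low stromal transcripts are marked in the plot of the members by cornea.

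Most restriction factor genes are switched on by interferons. Type I and type III interferons bind their receptors, the JAK kinases phosphorylate STAT proteins, and a complex that contains IRF9 binds interferon-stimulated response elements in promoters, while STAT dimers bind gamma-activated sites. The encoded proteins then act at different points. IFITM proteins hinder fusion of the virus with cell membranes, MX proteins bind nucleocapsids or polymerase complexes, SAMHD1 depletes the nucleotides needed for reverse transcription, ZAP (Zc3hav1) and ISG20 act on viral RNA, and tetherin (Bst2) holds budding particles at the cell surface. The cornea, an exposed surface, is a site of herpesvirus and adenovirus infection.

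Promoter sequence from RefSeq was given for 7 of the 9 members, with none for Mx1 and Mx2. The windows ran from 250 bases before to 50 bases after the annotated start in GRCm38.p6. Those of Bst2, Ifitm3, Ifitm2 and Ifitm1 are shown from 250 bases before to 30 bases after the start, 5′ to 3′ along the gene. Bst2 and the Ifitm cluster contrast members with and without response element letters in these windows. Capitals mark GAAA, any 2 bases and GAAA again, the core of an interferon-stimulated response element, which reads TTTC, any 2 bases and TTTC on the other strand. The Bst2 window lies at chr8:71537443-71537722, on the minus strand. The Ifitm3 window lies at chr7:141010715-141010994, on the minus strand. The Ifitm2 window lies at chr7:140955932-140956211, on the minus strand, and that of Ifitm1 at chr7:140967826-140968105, on the plus strand.
Bst2: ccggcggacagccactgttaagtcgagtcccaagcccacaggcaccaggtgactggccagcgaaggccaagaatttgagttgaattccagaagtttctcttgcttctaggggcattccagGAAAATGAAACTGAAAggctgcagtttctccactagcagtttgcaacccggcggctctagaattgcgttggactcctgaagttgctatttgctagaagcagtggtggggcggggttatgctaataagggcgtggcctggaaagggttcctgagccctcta
Ifitm3: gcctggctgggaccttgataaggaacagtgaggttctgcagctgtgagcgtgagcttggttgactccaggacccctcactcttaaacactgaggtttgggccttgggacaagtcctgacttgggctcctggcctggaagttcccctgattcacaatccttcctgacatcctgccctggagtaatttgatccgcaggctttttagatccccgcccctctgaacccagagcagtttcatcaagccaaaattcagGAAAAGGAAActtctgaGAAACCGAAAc
Ifitm2: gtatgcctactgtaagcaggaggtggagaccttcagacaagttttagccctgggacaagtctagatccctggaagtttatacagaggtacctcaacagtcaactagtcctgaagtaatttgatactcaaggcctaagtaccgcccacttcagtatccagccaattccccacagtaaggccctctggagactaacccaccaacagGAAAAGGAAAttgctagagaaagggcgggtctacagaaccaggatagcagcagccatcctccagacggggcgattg
Ifitm1: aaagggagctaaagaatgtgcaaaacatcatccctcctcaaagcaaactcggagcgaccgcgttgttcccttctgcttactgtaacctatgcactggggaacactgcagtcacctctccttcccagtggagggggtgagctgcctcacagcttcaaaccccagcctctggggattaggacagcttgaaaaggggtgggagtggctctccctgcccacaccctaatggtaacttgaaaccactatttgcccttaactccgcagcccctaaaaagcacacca

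The Bst2 promoter held 2 overlapping copies of these letters, at -130 to -121 and -124 to -115 from the start. Ifitm3 held 2 copies just after the start, at 3 to 12 and 20 to 29, and Ifitm2 held 1 copy at -46 to -37. None was found in the windows of Ifitm1, Samhd1, Zc3hav1 and Isg20. The Ensembl gene of Ifitm1 begins at chr7:140967221, upstream of its window, and the sequence before that start was not searched. Among all 32851 promoter windows, 3.44% held the letters on either strand. Another set, TTCNNNGAA, which reads the same on both strands and is the core of a gamma-activated site, was present in 8.3% of all windows. It was found in Bst2 at -136 to -128, overlapping the first copy above, in Ifitm3 at 14 to 22, overlapping the second copy there, in Samhd1 at -235 to -227 and in 1 of the 3 Isg20 starts at -73 to -65. A match of letters is a description of the sequence and was not tested as a binding site.

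**Figure D1:**
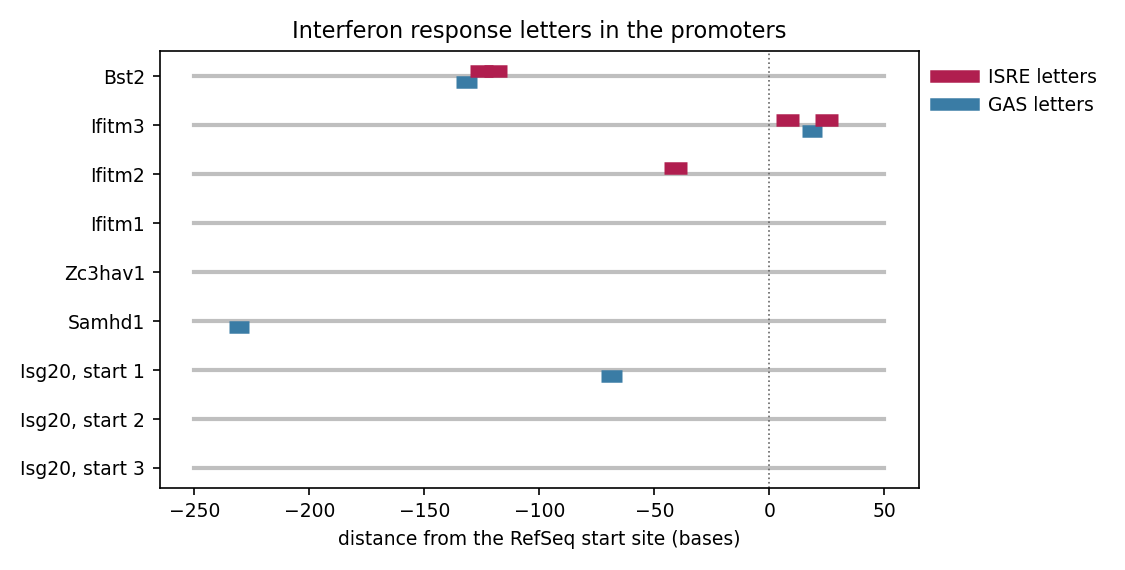
Each grey line is a promoter window from 250 bases before to 50 after a RefSeq start (x axis, distance in bases), with red boxes for the response element letters (GAAA, any 2 bases, GAAA) and blue boxes for TTCNNNGAA on either strand. Bst2, Ifitm3 and Ifitm2 carry red boxes, and the Ifitm1 and Zc3hav1 windows carry neither.

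Mx1 and Mx2 are neighbours on chromosome 16 that encode dynamin-like GTPases. Mx1 (ENSMUSG00000000386, chr16:97447035-97462907, minus strand) is annotated as protein coding in the Ensembl gene set and as a transcribed pseudogene by RefSeq. Mx2 (ENSMUSG00000023341, chr16:97535308-97560900, plus strand) is annotated as a polymorphic pseudogene and also as a transcribed pseudogene by RefSeq. Most laboratory mouse strains carry disrupted alleles of both genes, so a transcript does not imply a working protein.

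Mx1 was at 8.31, 8.84, 7.49 and 9.15 in BALB/c replicates 1 to 4 and at 5.97, 5.42, 5.14 and 5.11 in C57BL/6N replicates 1 to 4. Every BALB/c cornea lay above every C57BL/6N cornea, and the closest pair was 1.52 apart. The means were 8.45 ± 0.73 and 5.41 ± 0.40 (SD, n = 4 each), a difference of 3.04 (SE 0.34) or 8.2-fold on the rlog scale. This was the largest difference among the members and rank 22 from the top among the 25402 genes.

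Mx2 was at 8.51, 8.76, 7.77 and 9.23 in the BALB/c corneas and at 6.00, 5.83, 5.56 and 5.22 in the C57BL/6N corneas. The strains were again separate, by 1.77 at the closest. The means of 8.57 ± 0.61 and 5.65 ± 0.34 (SD, n = 4 each) differed by 2.91 (SE 0.29), rank 31. Both Mx genes ordered the corneas alike, with replicate 4 highest and replicate 3 lowest in BALB/c and replicate 1 highest and replicate 4 lowest in C57BL/6N. The correlation of their deviations from the strain means over the 8 corneas was r = 0.96. The transcripts share a stretch of 843 bases at 95.3% identity, so reads could be assigned to either gene and their separate levels are uncertain.

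Bst2 (ENSMUSG00000046718, chr8:71534255-71537456, minus strand) encodes tetherin, a membrane protein anchored at both ends. Its values were 9.80, 9.35, 8.87 and 9.81 in BALB/c and 8.16, 8.27, 7.44 and 7.05 in C57BL/6N. The strains did not overlap, and the 2 lowest values overall came from the C57BL/6N corneas with low stromal transcripts. The means of 9.46 ± 0.44 and 7.73 ± 0.58 (SD, n = 4 each) differed by 1.73 (SE 0.30), a 3.32-fold difference on the rlog scale and rank 95.

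Ifitm1, Ifitm2 and Ifitm3 lie within 55.9 kb on chromosome 7 and encode small interferon-induced transmembrane proteins. IFITM1 sits largely at the cell surface, while IFITM2 and IFITM3 sit in endosomes and act on viruses that enter through them. Ifitm3 (ENSMUSG00000025492, chr7:141009586-141010770, minus strand) was at 12.07, 11.36, 11.66 and 12.21 in BALB/c and at 10.66, 10.62, 8.43 and 8.30 in C57BL/6N. Every BALB/c value exceeded every C57BL/6N value, but within C57BL/6N the 2 corneas with low stromal transcripts lay more than 2 units below the others. The means of 11.82 ± 0.39 and 9.50 ± 1.32 (SD, n = 4 each) differed by 2.32 (SE 0.55), rank 54 and 5.0-fold on the rlog scale.

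Ifitm2 (ENSMUSG00000060591, chr7:140954837-140955987, minus strand) was at 10.71, 10.07, 10.84 and 10.85 in BALB/c and at 10.44, 10.77, 9.19 and 9.24 in C57BL/6N. The strains overlapped, and the lowest BALB/c value and the 2 lowest C57BL/6N values came from the corneas with low stromal transcripts. The difference of means was 0.71 (SE 0.36), rank 543.

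Ifitm1 (ENSMUSG00000025491, chr7:140967221-140969825, plus strand) was at 13.21, 13.37, 13.92 and 13.93 in BALB/c and at 14.06, 13.89, 13.66 and 13.84 in C57BL/6N. The strains overlapped, and this was the only member with a lower mean in BALB/c on the deposited values, with a difference of -0.26 (SE 0.17). The difference ranked 23530 of 25402 from the top. Ifitm1 shares 319 bases at 97.5% identity with Gm7676, which was 0.65 lower in BALB/c on the rlog scale (difference -0.65), and Ifitm2 shares 432 bases at 97.0% identity with Gm11951, which was at a mean rlog of only 1.69. For Bst2, Ifitm3 and Isg20 no other gene shared 100 bases at 95% identity, and between Ifitm2 and Ifitm3 the longest stretch, 364 bases, was 83.2% identical.

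Zc3hav1, Samhd1 and Isg20 encode the members that act on nucleic acids or nucleotides. Zc3hav1 (ENSMUSG00000029826, chr6:38305286-38354603, minus strand) encodes the zinc finger antiviral protein, which binds CpG-rich viral RNA. It was at 12.37, 12.52, 12.38 and 12.51 in BALB/c and at 12.05, 12.05, 12.05 and 12.14 in C57BL/6N. The strains were separate by 0.23 with little spread within either, and the difference was 0.37 (SE 0.05), rank 1729. Centring each cornea on its median gave 0.30.

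Samhd1 (ENSMUSG00000027639, chr2:157097533-157135265, minus strand), the dNTP triphosphohydrolase gene, was at 11.44, 11.54, 11.18 and 11.64 in BALB/c and at 11.12, 10.98, 11.23 and 11.08 in C57BL/6N. BALB/c replicate 3 fell below C57BL/6N replicate 3, so the strains overlapped, and the difference was 0.35 (SE 0.10). Isg20 (ENSMUSG00000039236, chr7:78913424-78920396, plus strand), which encodes an RNA exonuclease, was at 6.12, 6.02, 5.95 and 5.93 in BALB/c and at 6.13, 6.02, 5.81 and 5.95 in C57BL/6N. The strains overlapped throughout, with a difference of 0.02 (SE 0.09) that was -0.05 after centring on the median or quantile normalization. Both Samhd1 and Zc3hav1 hold stretches of at least 100 bases that are at least 95% identical to parts of other transcripts, of 27 genes for Samhd1 and 22 for Zc3hav1.

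**Figure D2:**
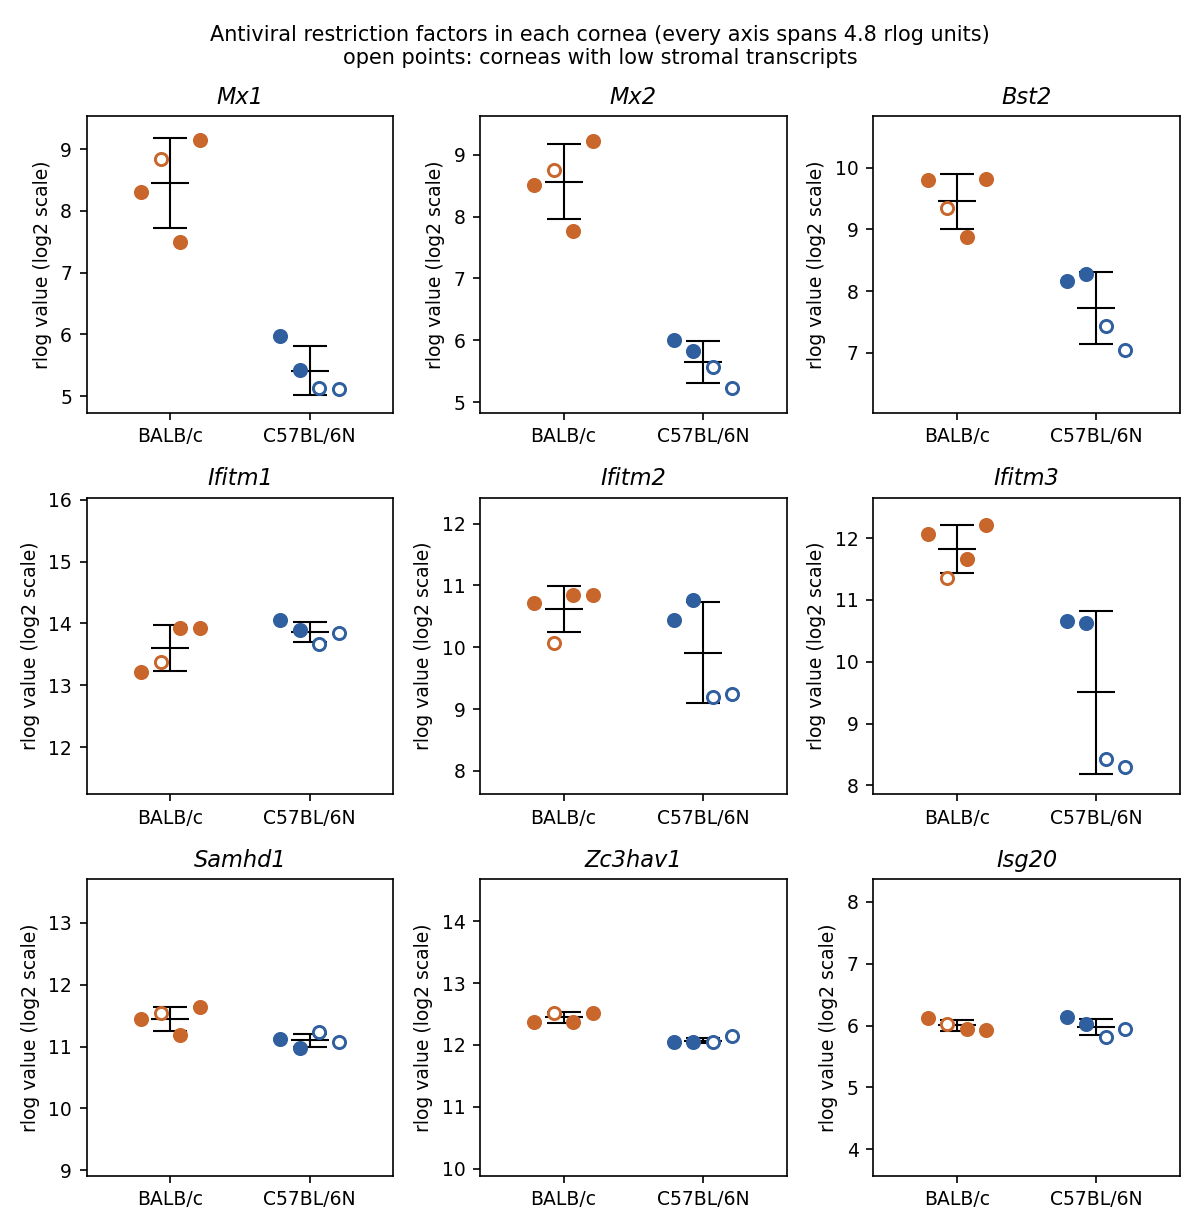
Each point is the rlog value (y axis, log2 scale) of 1 cornea for 1 of the 9 members, with horizontal bars at the mean ± SD of the 4 corneas of a strain, and every y axis covers the same span. Open points are the 3 corneas with low stromal transcripts, and the strains do not overlap for Mx1, Mx2, Bst2, Ifitm3 and Zc3hav1.

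In all, 5 of the 9 members had no overlap with higher values in BALB/c, beside 8.75% of all 25402 genes. In the fit across all genes, 4 of the 9 (Mx1, Mx2, Bst2 and Zc3hav1) passed the threshold with higher values in BALB/c, beside 2.83% of all genes, and 0 passed with lower values, beside 2.91%. Since the members were picked with this contrast known, nothing is read from these counts. The median difference of the members was 0.71, beside 0.008 over all genes, of which the middle 90% lay between -0.33 and 0.45. The 4 members with differences over 1 were Mx1, Mx2, Ifitm3 and Bst2. Of these, Ifitm3 had the widest spread within C57BL/6N and did not pass the threshold.

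Levels can be compared between genes only per length, here as the rlog value minus log2 of the exon length in kb. In BALB/c this level was 13.48 for Ifitm1, 12.39 for Ifitm3 and 11.23 for Ifitm2, above all other members. It was 9.74 for Zc3hav1, 9.61 for Bst2, 8.26 for Samhd1, 6.71 for Mx2, 6.53 for Mx1 and 5.11 for Isg20. Zc3hav1 and Bst2, and likewise Mx2 and Mx1, differed by less than their spread between corneas. In C57BL/6N the levels were 13.73 for Ifitm1, 10.52 for Ifitm2, 10.06 for Ifitm3, 9.37 for Zc3hav1, 7.91 for Samhd1, 7.88 for Bst2, 5.09 for Isg20, 3.8 for Mx2 and 3.49 for Mx1. Here Ifitm2 and Ifitm3, Ifitm3 and Zc3hav1, Samhd1 and Bst2, and Mx2 and Mx1 were within their spread of each other. Thus the Mx genes, lowest of all in C57BL/6N, stood above Isg20 in BALB/c, while Ifitm1 was the most abundant member per length in both strains.

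**Figure D3:**
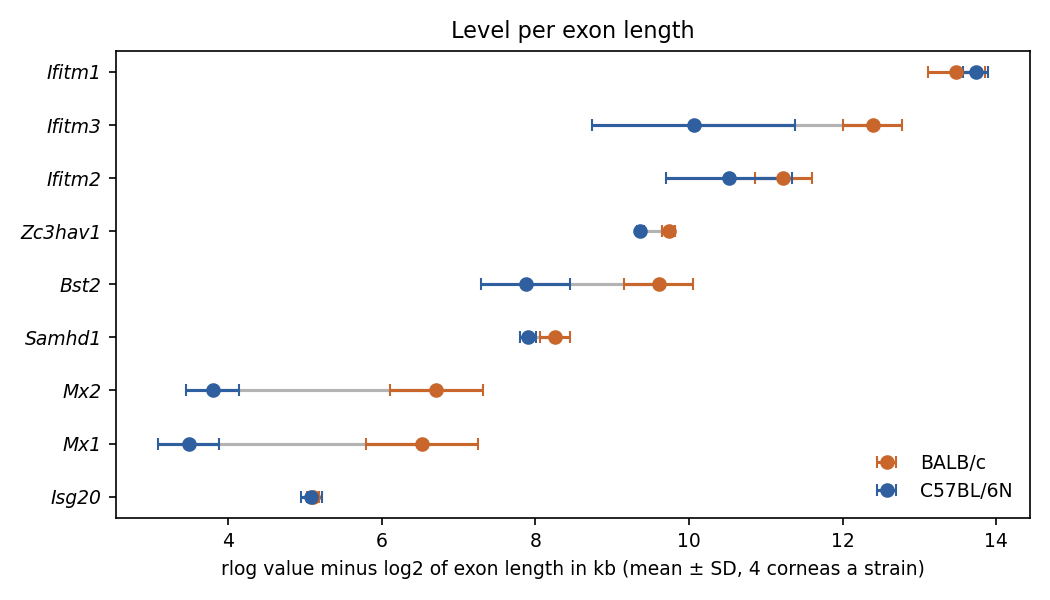
Points are the mean level per length (x axis, rlog value minus log2 of exon length in kb) of each member in BALB/c (orange) and C57BL/6N (blue), with bars of ± SD over 4 corneas. Ifitm1 is highest in both strains at 13.48 and 13.73, and the Mx genes show the longest grey lines between the strains.

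Stromal transcripts varied within both strains, which allowed a measure that is independent of the strain contrast. A limma fit of strain and of the mean of the 6 stromal genes gave, for each gene, the change in its rlog value per unit of the stromal mean at constant strain (the stromal coefficient). The fit was chosen after the values were seen, and since the stromal mean fell into separate sets of 5 and 3 corneas, the coefficient rests mainly on the difference between those sets. In the set of 3 corneas only replicate 2 is from BALB/c. The fit assumes the same slope in both strains, which was not tested. Without BALB/c replicate 2 the coefficient of Ifitm3 was 0.70. The mean over 3 corneal endothelium genes was also lowest in the 3 corneas with low stromal transcripts. It was 12.09 in BALB/c replicate 2 and 11.96 and 11.67 in C57BL/6N replicates 3 and 4, beside 12.66 or more in the others. The coefficient therefore cannot tell stroma and corneal endothelium apart. Of all genes, 4.76% had a positive coefficient at a Benjamini-Hochberg adjusted p of 0.01 or less.

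Ifitm3 and Ifitm2 passed this threshold and the other 7 members did not. Ifitm3 was higher by 0.61 per unit of the stromal mean (SE 0.06, limma adjusted p = 0.000125), and Ifitm2 by 0.41 (SE 0.03, adjusted p = 7e-06). Over the fits that each left out 1 cornea, the coefficient stayed between 0.56 and 0.70 for Ifitm3 and between 0.37 and 0.45 for Ifitm2. A robust fit gave adjusted p = 0.0101 for Ifitm3, just outside the threshold. For Ifitm1, the third gene of the cluster, the coefficient was 0.09 (adjusted p = 0.328). Bst2 had a coefficient of 0.25 (SE 0.08, adjusted p = 0.0662), and without BALB/c replicate 3 it was 0.28 with adjusted p = 0.00104. Coefficients lay between -0.04 and 0.10 for Mx1, Mx2, Samhd1, Zc3hav1 and Isg20, with adjusted p of 0.441 or more.

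With the stromal mean in the fit, the strain difference was 1.81 (SE 0.18) for Ifitm3, 0.36 (SE 0.08) for Ifitm2 and 1.52 for Bst2. It was 2.97 for Mx1 and 2.83 for Mx2. Without the 3 corneas with low stromal transcripts, which leaves 3 BALB/c and 2 C57BL/6N corneas, the differences were 2.62 for Mx1, 2.59 for Mx2, 1.34 (SE 0.15) for Ifitm3, 1.28 for Bst2 and 0.19 for Ifitm2. The Ifitm3 and Bst2 differences thus kept their direction at a smaller size within the stroma-rich corneas, where Ifitm3 was at 11.66 to 12.21 in BALB/c and at 10.62 and 10.66 in C57BL/6N.

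**Figure D4:**
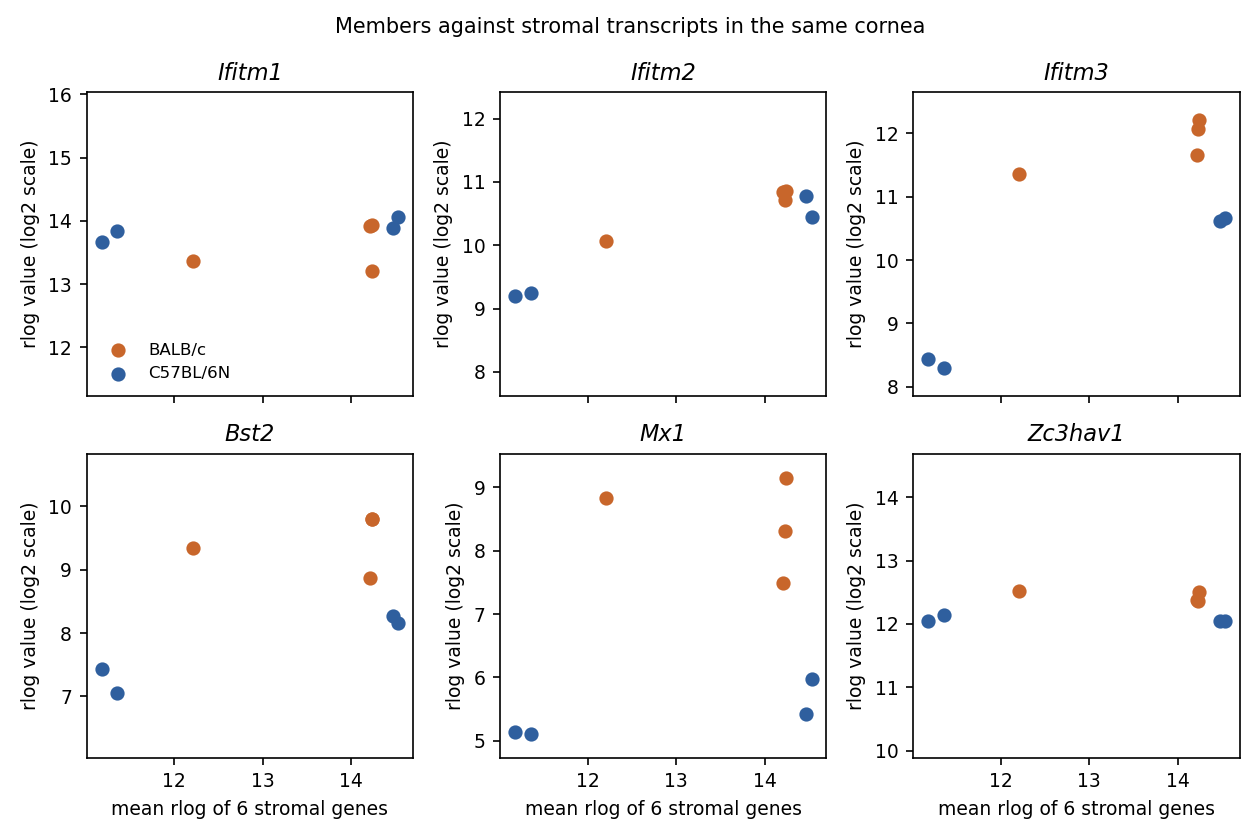
Each point is 1 cornea, with the mean rlog of 6 stromal genes on the x axis and the rlog value of the member on the y axis, in orange for BALB/c and blue for C57BL/6N. Ifitm2 and Ifitm3 are lower in the 3 corneas on the left, and for Mx1 the BALB/c points lie above the C57BL/6N points on both sides of the panel.

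The members also differed in how much they varied within a strain. The pooled standard deviation within strains was 0.97 for Ifitm3, 0.63 for Ifitm2, 0.59 for Mx1, 0.52 for Bst2 and 0.49 for Mx2. It was larger than in 99.3% of genes of like mean level for Ifitm3, 98.0% for Ifitm2, 94.9% for Bst2, 94.1% for Mx1 and 92.0% for Mx2. For Zc3hav1 it was 0.067, beside a median of 0.090 for genes of like level.

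Other antiviral effectors, picked as a list with earlier results of these data known, gave the setting of the members. Of 13 tested, 7 were higher in BALB/c at a limma adjusted p of 0.01 or less and 0 were lower, with a median difference of 0.47. Rsad2, which encodes viperin, had the largest difference at 4.23 (SE 0.38, adjusted p = 8.33e-05). The kinase gene Eif2ak2 was higher by 0.95 (SE 0.09, adjusted p = 0.00016), the RNA editing enzyme gene Adar by 0.91 and the antibody receptor gene Trim21 by 0.89. Also called were Apobec3 at 1.1 (SE 0.22, adjusted p = 0.00977), Mov10 at 0.46 and Znfx1 at 0.47, but 2 of these calls rested on nearly every cornea. Apobec3 kept its call only without C57BL/6N replicate 1 among the fits that left out 1 cornea, and Znfx1 only without BALB/c replicate 3. Serinc3 and Serinc5, which lower retroviral infectivity, had differences of -0.03 and -0.08 and did not pass the threshold.

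Paralogs and cofactors of the members mostly had small differences. Of the 10 paralogs, Ifitm7 was listed at 0 in all corneas and Ifitm6 did not pass the filter, and of the 8 tested only Parp12, a relative of Zc3hav1, was called, higher in BALB/c by 0.68 (SE 0.08, limma adjusted p = 0.000477). The differences of the other 7 ranged from -0.20 to 0.06, with Ifitm10 at -0.19 and Ifitm5 at 0.06. Of 13 cofactor genes, 0 were called, with differences from -0.28 to 0.22. They include Trim25 and Khnyn, which work with ZAP, at 0.22 and -0.26, Zmpste24, which works with IFITM proteins, at -0.02, and Rrm1 and Rrm2, which make the nucleotides that SAMHD1 breaks down, at 0.18 and 0.22.

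Interferons, their receptors and their signalling genes were examined in order of the pathway. Of 24 genes, Ifnb1, Ifna4, Ifng, Ifnl2 and Ifnl3 were listed at 0 in all corneas, and Ifnk and Ifne did not pass the filter. The receptor genes Ifnar1 at -0.12, Ifnar2 at 0.07 and Ifnlr1 at 0.16 and the kinase genes Jak1 at -0.08 and Tyk2 at -0.19 did not pass the threshold. Of the 17 tested, 6 were called, all higher in BALB/c. Among them were Usp18, a feedback inhibitor of the receptor, by 3.21 (SE 0.22), Irf7 by 1.93 (SE 0.09), Irf9 by 1.59 (SE 0.09), Stat2 by 1.16 (SE 0.11) and Socs1 by 0.66 (SE 0.12). Among the fits that left out 1 cornea, Socs1 kept its call only without C57BL/6N replicate 2. Stat2 was at 11.84, 12.08, 11.69 and 12.27 in BALB/c and at 10.79, 10.86, 10.84 and 10.76 in C57BL/6N. As for Mx1 and Mx2, replicate 4 was the highest and replicate 3 the lowest of the BALB/c corneas.

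Of 12 interferon-induced reference genes, 11 were called, all higher in BALB/c, with a median difference of 2.39 and a range of 0.80 to 3.85 over the 12. Oas2 had the largest difference at 3.85 (SE 0.19, limma adjusted p = 1.8e-06). Next came Cmpk2 at 3.66, Rtp4 at 3.10, Ifit1 at 2.79, Oas3 at 2.73, Isg15 at 2.54 and Xaf1 at 2.23. Ifit2 at 1.18 (adjusted p = 0.0198) did not pass. This direction was known when the list was made and is not independent evidence. The response element letters were found in the promoters of 6 of the 10 reference genes with a window, 4 of 11 other effectors, 3 of 21 interferon, receptor and signalling genes, 0 of 10 paralogs and 0 of 11 cofactors, beside 3 of 7 members. Among all 27025 genes with a window, 1079 held the letters in any of their windows.

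**Figure D5:**
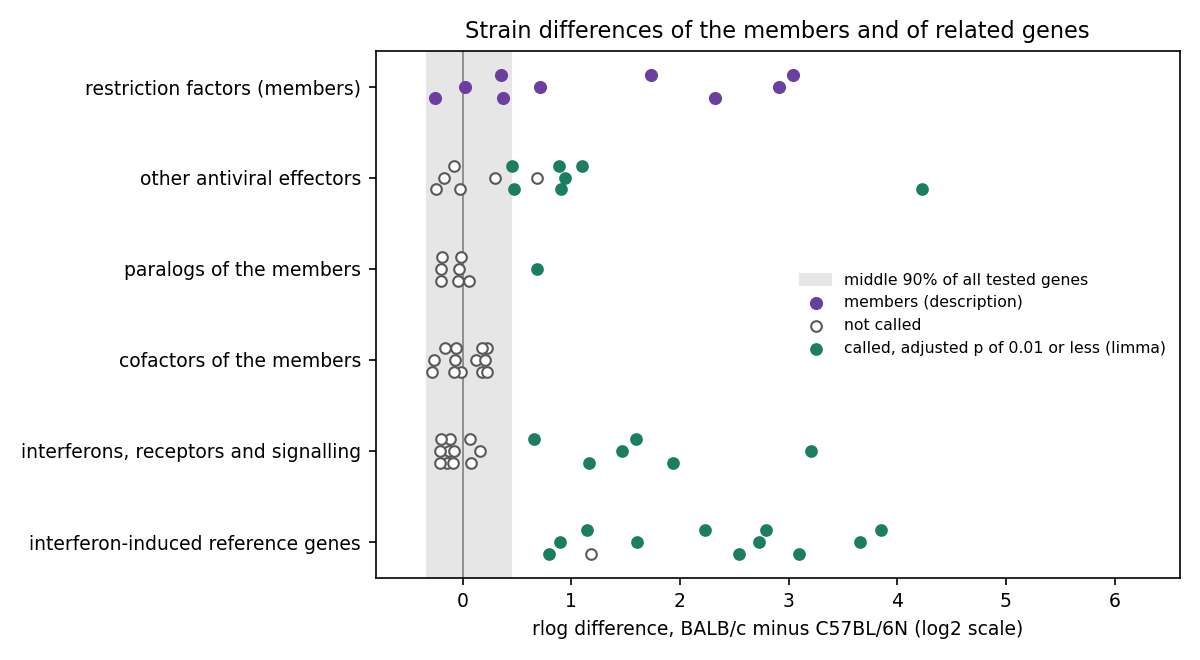
Each point is the rlog difference (x axis, BALB/c minus C57BL/6N) of 1 gene, by list, with filled green points for genes at an adjusted p of 0.01 or less in limma, open points for the rest, purple for the members, shown as a description, and a grey band for the middle 90% of all tested genes. Members spread from -0.26 to 3.04, while 13 of 13 cofactors lie close to 0.

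Over these 5 lists 25 of 63 tested genes were called, all higher in BALB/c, and 20 to 23 of them were also called after leaving out any 1 cornea. With p-values recalibrated to an empirical null, whose estimated SD was 1.67, limma called 0 of all 25402 genes and 0 of these 63, with 1730 of all genes at an unadjusted p under 0.05. Without the 3 corneas with low stromal transcripts 18 of the 25 remained, and those lost included Stat2, Socs1, Ifit3, Epsti1, Mov10 and Znfx1.

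Markers of other cell types that a cornea sample could hold were examined beside the members. Of 17 leukocyte markers, 12 were tested, and only S100a9 was called, lower in BALB/c (difference -1.54). The T cell marker Cd8a, the natural killer cell marker Ncr1 and the B cell marker Ms4a1 were listed at 0 in all corneas, and the pan-leukocyte marker Ptprc had a difference of 0.20 (SE 0.17). The summed level of the leukocyte list was 11.46 to 11.67 in BALB/c and 11.42 to 11.68 in C57BL/6N on a log2 scale. Most of this sum came from Itgam, with means of 10.45 in BALB/c and 10.64 in C57BL/6N, and Cd68, at 10.33 and 10.12. Ptprc was at means of 4.96 and 4.76, so the sum does not compare leukocyte content as a whole. Of the uncalled leukocyte markers, Cd68 was higher in BALB/c (difference 0.21) and Cd3e lower (difference -0.07), both without overlap of the strains. Of 8 vascular endothelium markers 0 were called, with a median difference of 0.49 and summed levels of 9.39 to 10.49 and 8.59 to 10.49. Kdr, at means of 9.82 and 9.21, made up most of these sums, beside 5.12 and 4.64 for Pecam1. Flt4 was higher in BALB/c by 0.67 (limma adjusted p = 0.023) without overlap of the strains. Of 4 conjunctival markers 3 were lower in BALB/c (differences of -2.51 for Krt13, -1.17 for Krt4 and -0.97 for Krt19). The other, Muc5ac, had a difference of 2.19 (limma adjusted p = 0.0225) without overlap of the strains. The part of these differences in the values of the members was not tested. Lens and pigment cell markers were raised in BALB/c replicates 1 and 4, where the mean over the 5 pigment genes was 10.42 and 11.34, beside 6.55 and 6.22 in replicates 2 and 3. The mean over the 8 vascular endothelium markers was 5.25 and 5.45 in replicates 1 and 4, beside 4.44 and 4.54 in replicates 2 and 3. Replicates 1 and 4 were likewise the 2 highest BALB/c corneas for Bst2 and Ifitm3 but not for the other 7 members. The part of lens, pigment cell and vascular endothelium transcripts in the values of the members was not tested.

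For each member the most similar patterns were searched over the 8 corneas among 12688 protein-coding genes with a mean rlog of at least 5, by Pearson's r. The points share the strain contrast, so r is a description. For Mx1 the Schlafen gene Slfn8 (r = 0.9944) was among the 2 nearest genes. For Mx2 they were Slfn8 (r = 0.9927) and Ifit3b (r = 0.9924), and for Bst2 Dennd1a (r = 0.9927) and Lgals3bp (r = 0.9842), the latter 2.26 higher in BALB/c.

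Ifitm3 was nearest to Bhlhe41 (r = 0.9959) and Ttc12 (r = 0.9941), and Ifitm2 to Rab31 (r = 0.9944) and Adcy7 (r = 0.9943). Ifitm1 was nearest to Ctnnbip1 (r = 0.9831) and Cnfn (r = 0.969). Zc3hav1 was closest to Ogfr (r = 0.9946) and Eno1 (r = 0.9925), Samhd1 to Znfx1 (r = 0.9588) and Slf1 (r = 0.9536), and Isg20 to Chka (r = 0.9548) and Inip (r = 0.9389).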

How the data were processed

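The authors sequenced total RNA of 8 naive corneas, trimmed the reads, aligned them to strain-specific versions of GRCm38 with TopHat2 2.1.1, mapped the positions back to the reference, and assigned reads to Ensembl genes with HTSeq 0.7.1 (versions per the submitters' processing notes). The authors deposited rlog values of DESeq2 1.30, which are on a log2 scale, normalized for library size and written with decimal commas. Raw counts were not used here, so precision rests on the replicates.

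The strain contrast was fitted in limma 3.58.1 under R 4.3.3 (lmFit, eBayes, variance trend) over 25402 genes with a mean rlog of at least 0, with Benjamini-Hochberg adjustment and a threshold of 0.01. The script was tested on simulated data. The members and lists were chosen with earlier results of these data known. Named are all members, the called genes of each list with its main uncalled genes, and the 2 genes most like each member. Named uncalled list genes were picked after their values were seen. Some genes that this rule names are not reported here. The stromal fits were added after seeing the data. Transcripts were compared with BLAST 2.17.0. Alternatives were other filters, scalings, variance models, an empirical null, a replicate block, and leaving out each cornea. Plots were drawn with Python 3.11.15 and matplotlib 3.10.9.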

Additional observations from a re-analysis of the deposited data

Results flagged for a closer look

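Of 34 sets of 4 corneas examined (each member and the mean of each cell type list, in each strain), 3 had 1 cornea whose gap to its nearest neighbour exceeded Dixon's 95% critical value as a share of the whole range, and chance gives about 1 in 20, or 1.7 here. For Zc3hav1 in C57BL/6N, replicate 4 at 12.14 stood apart from the nearest value of 12.05, with the gap making up 0.916 of the range, although the whole range was small. For the stromal keratocytes in BALB/c, replicate 2 at 12.21 stood below the nearest value of 14.21 (0.987 of the range). The corneal endothelium list was also low in BALB/c replicate 2, at 12.09 beside 12.66 (0.915 of the range). The low C57BL/6N replicates 3 and 4 are a pair in both lists, which this measure for single samples does not pick up.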

How the results depend on the processing

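Over all genes, limma called 1458 (718 higher and 740 lower in BALB/c). Centring each cornea on its median called 958 (413 higher, 545 lower) and gave 0.30 for Zc3hav1. The empirical null called 0 (0 higher, 0 lower, 0 in the 5 lists), with a smallest adjusted p of 0.13. An adjusted p of 0.05 called 2842 (1413 higher, 1429 lower, 1 lower in the lists). The stromal covariate called 2341 (1168 higher, 1173 lower, 2 lower in the lists). Without the 3 corneas with low stromal transcripts 852 were called (411 higher, 441 lower) and the Ifitm3 difference was 1.34. A robust fit left the Ifitm3 stromal coefficient at 0.61 with adjusted p = 0.0101. Apart from the looser threshold and the smaller sample, the cause was not tested.

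Leaving out each cornea in turn called 953 to 1163 genes (485 to 561 higher, 468 to 608 lower), 20 to 23 in the lists, and 754 to 1206 with a positive stromal coefficient, beside 1208. The differences ranged from 2.80 to 3.36 for Mx1, 2.69 to 3.18 for Mx2, 1.51 to 1.93 for Bst2, 1.92 to 2.71 for Ifitm3, 0.47 to 1.0 for Ifitm2, -0.37 to -0.12 for Ifitm1, 0.29 to 0.44 for Samhd1, 0.34 to 0.40 for Zc3hav1 and -0.03 to 0.07 for Isg20. The Bst2 stromal coefficient ranged from 0.19 to 0.30.

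The labels give both strains replicate numbers. Over all genes, the deviations of corneas of the same number correlated at r = 0.305, -0.53, -0.203 and -0.454. Replicates 2, 3 and 4 each set a cornea with low stromal transcripts beside one without. These values therefore cannot settle whether the numbers pair the corneas, and the main fit did not pair them. With the replicate block 554 genes were called (274 higher, 280 lower), 19 of the 25 in the lists among them. Of 117 comparisons of member differences, 115 moved by less than the spread between replicates. This limit is wide for members that vary much within a strain, so the count says little about them. Ifitm2, with a spread of 0.63, counts as unmoved at 0.19 without the corneas with low stromal transcripts, beside 0.71 with all corneas. Isg20, close to 0, changed sign under several of the comparisons and still counts as unmoved. It went to -0.05 by centring or quantile normalization, -0.01 with the stromal covariate and -0.08 without the corneas with low stromal transcripts. The unknown read numbers limit the precision of low genes such as Isg20 and the Mx genes in C57BL/6N.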

Other observations

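The genes around the members were examined after the values were seen. Within 250 kb of a member lay 80 tested protein-coding genes, of which 2 were called by limma. Of all tested genes, 2.83% were called higher in BALB/c and 2.91% lower. Tmprss2, a membrane protease gene 3.8 kb from Mx2, was lower in BALB/c by 0.77 on the rlog scale (difference -0.77, adjusted p = 0.00202), opposite in direction to Mx1 and Mx2. B3gnt3, a glycosyltransferase gene 153.3 kb from Bst2, was also lower (difference -1.36, adjusted p = 3.16e-05). Around the Ifitm genes 0 of 24 neighbours within this distance were called, and genes farther away were not counted.

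Among genes outside the members, Csf1r, the macrophage growth factor receptor gene, and Kdr, an endothelial receptor gene, had positive stromal coefficients. These were 0.48 (limma adjusted p = 3.68e-05) and 0.62 (adjusted p = 1.44e-06), beside 4.76% of all genes with a positive coefficient past the threshold. Of the tested leukocyte and vascular endothelium markers only Csf1r, Kdr and Adgre1 (0.23, adjusted p = 0.000583) passed. Itgam at -0.09, Cd68 at -0.05, Pecam1 at 0.11 and Cdh5 at 0.27 did not. The 12 interferon-induced reference genes had stromal coefficients from -0.06 for Ifih1 to 0.25 for Ifit2, whose limma adjusted p of 0.019 was the smallest of them.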
